A study of Mus musculus with 2 samples.

Results

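EGR transcription factors and dual-specificity phosphatases (DUSPs) were followed in tumor-bearing mouse liver, cell class by cell class, with and without anti–PD-1 treatment. The set held 9 of the 32589 listed genes, namely the factors *Egr1*, *Egr2* and *Egr3* and the phosphatases *Dusp1*, *Dusp2*, *Dusp4*, *Dusp5*, *Dusp6* and *Dusp10*. They were taken by gene symbol alone, and all 9 were found. The data are single-cell RNA-Seq of whole tumor-bearing livers, with 1 library per group. In both groups cholangiocarcinoma (CCA) had been induced by hydrodynamic tail vein injection of plasmids for the Notch intracellular domain and myristoylated AKT, and doxycycline-inducible shRNAs against *Yap1* and *Wwtr1* (TAZ) were on from day 25 (genotype shYT). The shYT_PBS group received PBS. The shYT_antiPD1 group received the anti–PD-1 antibody RMP1-14 on days 26, 29 and 32, and livers were analyzed on day 33. The shRNAs depend on rtTA3 driven by the *CAG* promoter in the whole body, not in the tumor cells alone. Since the PBS group carries them too, the knockdown itself was not compared. The labels name neither shRNA line, sex nor age, and although several mice of a group are described and both sexes were used in the study, the cells carry no mark of their animal.

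EGR factors are zinc finger proteins of the immediate early class, whose genes are switched on within minutes when growth factor, antigen receptor or stress signals reach the ERK cascade. ERK phosphorylates ternary complex factors, which act with SRF at CArG boxes in the promoters of such genes. EGR1 is induced in most cell types, and in lymphocytes EGR2 and EGR3 follow calcium and NFAT signaling and restrain activation. DUSPs of this family remove phosphate from MAP kinases and close the feedback loop. DUSP1, DUSP2, DUSP4 and DUSP5 are nuclear, DUSP6 is the cytoplasmic phosphatase of ERK, and DUSP10 prefers JNK and p38.

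Unique molecular identifiers (UMIs, each marking 1 captured transcript) numbered 121713441 over 19397 barcodes with PBS and 100807037 over 19451 barcodes with anti–PD-1. Cells were kept if they had 500 to 5000 detected genes and no more than 10% of their UMIs from mitochondrial genes, which left 15531 and 16360 cells. Kept cells were assigned to 13 classes by 6 marker genes per class where these were unambiguous, which placed 11916 and 12173 cells. A class or finer gate was compared where both libraries held at least 100 cells, which was the case for 7 classes and 5 finer gates. Of 21 markers that were not used in the gate, 20 were highest in their own class among these 7 classes in each library. The libraries listed 219 barcodes in common. They also differed in *Xist* and Y-linked transcripts: 6686 PBS cells had only *Xist* and 1481 only Y-linked UMIs, against 4 and 7861 anti–PD-1 cells. Both kinds of UMI were found in 409 PBS and 7 anti–PD-1 cells, so the split is not exact for a single cell. Cells with only 1 kind were taken to come, in the main, from different mice, and the EGR and DUSP genes were also compared between them.

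With 1 library per group there was no spread between animals to compare with, and no test was made. Levels are CPM, the UMIs of a gene summed over a class and scaled to the same total in each class. The log2 ratio sets the anti–PD-1 level over the PBS level after 5 CPM were added to both, which understates the ratios of low genes, and a fold is the same ratio unlogged. A gene was called where it differed at least 2-fold and the mean of both levels was at least 10 CPM. All intervals are 95% intervals for counting error alone. Free RNA was not measured. Where it was taken off, an assumed 10% of a class's UMIs was removed, with the mix of genes found in all kept cells of its library. UMIs count the tagged end of a transcript, so levels are compared between cell classes and libraries and not between genes.

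Promoters are shown first, because ERK and cAMP signals are known to reach immediate early genes through short motifs there. Of the 9 genes, 6 were found among the RefSeq promoters (GRCm38.p6), and *Egr1*, *Egr3* and *Dusp4* were not. In the 250 bases before the start, both strands were searched for the CArG box, bound by SRF, for the cAMP response element (CRE) TGACGTCA, for its core TGACG, which also lies within each CRE, for the EGR site GCGNGGGCG and for the AP-1 site TGACTCA or TGAGTCA. Capitals mark the matches, and a core on the reverse strand reads CGTCA. *Dusp5* carried 2 CArG boxes side by side, 82 and 72 bases before its start, and a CRE core at 55 (chr19:53528895-53529144, forward strand). *Egr2* is listed with 5 starts, 4 of which had a CArG box, shown here for the third with its box at 72 and CRE cores at 111 and 55 (chr10:67537619-67537868, forward strand). *Dusp1* had a CRE at 143 and cores at 191, 143 and 140 (chr17:26508473-26508722, reverse strand). *Dusp2* had an EGR site at 98 (chr2:127335909-127336158, forward strand). *Dusp10* (chr1:184034131-184034380, forward strand) is shown as a gene with none of these motifs, as was *Dusp6*.
Dusp5: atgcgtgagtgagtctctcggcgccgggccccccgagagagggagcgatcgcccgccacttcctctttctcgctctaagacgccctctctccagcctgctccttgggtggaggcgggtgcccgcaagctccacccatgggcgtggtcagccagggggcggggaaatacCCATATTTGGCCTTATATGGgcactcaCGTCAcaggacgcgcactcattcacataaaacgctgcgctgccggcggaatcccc
Egr2: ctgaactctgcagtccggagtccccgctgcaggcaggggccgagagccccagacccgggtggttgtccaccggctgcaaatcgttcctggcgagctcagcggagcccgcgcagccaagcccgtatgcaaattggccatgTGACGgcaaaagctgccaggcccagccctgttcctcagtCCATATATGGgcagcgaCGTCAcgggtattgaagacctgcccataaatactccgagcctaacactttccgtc
Dusp1: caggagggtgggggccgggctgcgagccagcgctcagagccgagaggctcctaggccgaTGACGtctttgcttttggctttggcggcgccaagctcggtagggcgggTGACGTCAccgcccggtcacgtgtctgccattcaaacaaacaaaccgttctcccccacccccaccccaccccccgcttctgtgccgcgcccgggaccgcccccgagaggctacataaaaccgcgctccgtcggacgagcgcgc
Dusp2: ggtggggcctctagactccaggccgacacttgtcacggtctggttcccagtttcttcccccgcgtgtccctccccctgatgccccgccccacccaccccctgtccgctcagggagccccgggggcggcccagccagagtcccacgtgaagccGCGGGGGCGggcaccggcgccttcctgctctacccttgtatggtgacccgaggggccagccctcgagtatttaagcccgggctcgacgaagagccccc
Dusp10: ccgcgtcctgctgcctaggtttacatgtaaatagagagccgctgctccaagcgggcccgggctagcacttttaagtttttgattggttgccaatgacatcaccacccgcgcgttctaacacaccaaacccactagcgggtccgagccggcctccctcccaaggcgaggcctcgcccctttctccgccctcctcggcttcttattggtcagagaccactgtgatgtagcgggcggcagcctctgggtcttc
Among all 32851 promoters of the same length, 1.47% held a CArG box, 1.55% a CRE, 17.8% a CRE core, 4.7% an EGR site and 4.46% an AP-1 site. A match describes these letters only, no match says only that they are absent from this window, and no binding was measured. *Dusp5*, with its CArG boxes, and *Dusp10*, with none of the motifs, are the genes called in the most classes below.

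Across the classes the phosphatase genes *Dusp5* and *Dusp10* differed most widely between the libraries, *Dusp1* was higher with anti–PD-1 in every class (in B cells and CD8+ T cells not once free RNA was taken off), and *Egr1* and *Dusp2* were higher chiefly outside the lymphocytes. Of the 9 genes, 5 were called higher in monocytes and macrophages (*Egr1*, *Dusp1*, *Dusp2*, *Dusp5* and *Dusp10*), against 3.34% of all genes past the filter in that class. The same 5 genes were called in tumor and biliary epithelial cells, where the background was 3.41%, and in the Kupffer cell and tumor-associated macrophage (TAM) gates, with backgrounds of 2.67% and 3.74%. Cancer-associated fibroblasts (CAFs) had 3 genes called higher, *Egr1*, *Dusp1* and *Dusp5* (background 3.32%). T cells had 3, *Dusp4*, *Dusp5* and *Dusp10* (1.61%). B cells had 4, *Egr3* and the same 3 phosphatases (1.78%). NK cells and neutrophils had 2 each, *Dusp5* and *Dusp10* (2.07% and 2.95%). In the finer T cell gates 3 genes were called higher in CD8+ T cells, *Dusp4*, *Dusp5* and *Dusp10* (1.77%), 2 in CD4+ T cells without *Foxp3*, *Dusp5* and *Dusp10* (2.07%), and 4 in regulatory T cells, which added *Dusp1* and *Dusp4* (2.66%). Genes called lower were few, namely *Dusp6* in neutrophils (background 4.68%) and *Egr2* in CD4+ T cells without *Foxp3* (1.19%) and regulatory T cells (2.68%).

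Not every gene could be read in every class. Of the 9 genes, 9 passed the filter of 10 CPM in B cells, 8 in T cells and CAFs, 7 in neutrophils and in monocytes and macrophages, and 6 in NK cells and in tumor and biliary epithelial cells. *Egr3* was below it in 5 of the 7 classes and *Dusp4* in 4. The median log2 ratio over all 9 genes was 1.32 in monocytes and macrophages, 1.08 in tumor and biliary epithelial cells, 0.76 in B cells and between 0.29 and 0.40 in the other classes. Over all genes past the filter the median lay between −0.24 in neutrophils and 0.01 in CAFs, so that most ratios below stand against a background slightly below 0.

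**Figure D1:**
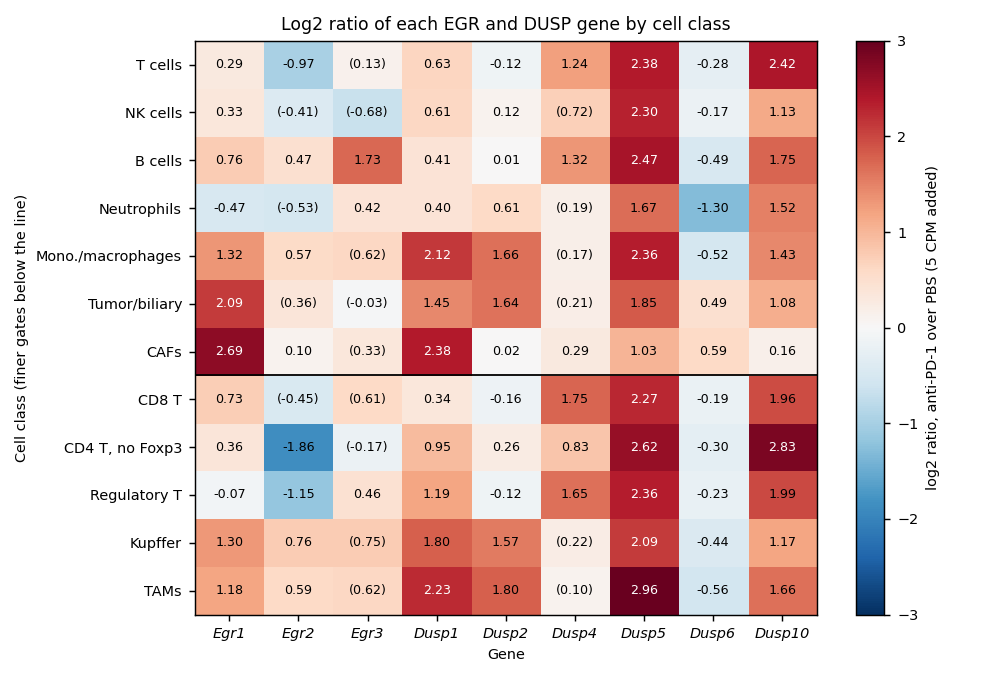
Log2 ratio of anti–PD-1 over PBS (5 CPM added) for each of the 9 genes (columns) in 7 cell classes and 5 finer gates (rows, finer gates below the line), with values in parentheses where the mean level was below 10 CPM. *Dusp5* is above 1 in all 12 rows and *Dusp10* in 11, while *Dusp6* is lowest at −1.30 in neutrophils and *Egr2* at −1.86 in CD4+ T cells without *Foxp3*.

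*Egr1* (ENSMUSG00000038418, mm10 chromosome 18, 34859823 to 34864984, forward strand) is, like the rest of its family, an immediate early gene. In CAFs it stood at 153 CPM in the PBS library (363 UMIs) and 1015 CPM in the anti–PD-1 library (936 UMIs), and in tumor and biliary epithelial cells at 194 (1112 UMIs) and 844 CPM (2101 UMIs). In monocytes and macrophages the levels were 245 and 621 CPM (9043 and 16919 UMIs). These 3 classes carried the difference, at log2 ratios of 2.69 (2.52 to 2.86), 2.09 (1.99 to 2.19) and 1.32 (1.29 to 1.36), or 6.45-fold, 4.26-fold and 2.50-fold. Lymphocytes were much lower in both libraries, with T cells at 66.0 and 81.8 CPM, NK cells at 71.8 and 91.8 CPM and B cells at 64.3 and 112 CPM. Their log2 ratios were 0.29, 0.33 and 0.76, and that of T cells became −0.06 when an assumed 10% of free RNA was taken off. In cells with Y-linked UMIs alone the ratio of macrophages was 0.92, and that of the TAM gate went from 1.18 to 0.57. Neutrophils went the other way, from 315 CPM in the PBS library to 225 CPM with anti–PD-1, a log2 ratio of −0.47 (−0.61 to −0.33). In thinned cells an *Egr1* UMI was found in 10.1% and 42.6% of CAFs and in 11.4% and 32.8% of tumor and biliary epithelial cells (unthinned 23.7% and 54.3%, 28.5% and 48.1%), against the lowest shares of 3.81% and 6.77% in B cells. The order of the classes was not the same in both libraries. *Egr1* was highest in neutrophils in the PBS library and highest in CAFs in the anti–PD-1 library, and the intervals of neighboring classes did not overlap among the top 4 of either library.

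*Egr2* (ENSMUSG00000037868, chromosome 10, 67535475 to 67542188, forward strand) was scarce. CAFs were its highest class in both libraries, at 48.1 and 52.0 CPM (114 and 48 UMIs), with a log2 ratio of 0.10 whose interval spanned 0 (−0.36 to 0.56). T cells held 166 (PBS) and 85 UMIs (anti–PD-1), or 16.1 and 5.80 CPM. The log2 ratio of −0.97 (−1.20 to −0.72) lay just short of the 2-fold limit, and T cells were among several classes with overlapping intervals in both libraries. The difference stood in the CD4+ cells. CD4+ T cells without *Foxp3* had 33.3 CPM (84 UMIs) in the PBS library and 5.57 CPM (18 UMIs) with anti–PD-1, which is 3.62-fold lower (log2 ratio −1.86, −2.29 to −1.38). Regulatory T cells had 27.8 and 9.73 CPM on only 29 and 11 UMIs (−1.15, −1.89 to −0.37), a ratio that was −0.68 with 20 CPM added. CD8+ T cells were low in both libraries, at 6.59 and 3.46 CPM. Macrophages differed in the opposite direction, at 13.03 and 21.8 CPM (481 and 594 UMIs, log2 ratio 0.57, 0.44 to 0.71). The UMIs of the CD4+ cells came from few cells, with 48 of 676 PBS cells (7.10%) and 17 of 772 anti–PD-1 cells (2.20%) holding an *Egr2* UMI. Thinned to 1000 UMIs per cell these shares were 2.09% (1.15% to 3.48%) and 0.390% (0.0805% to 1.14%), against 0.219% and 0.571% in NK cells. This gate also differed in transcripts of other cell types. The summed level of 3 B cell markers (*Ighm*, *Ighd* and *H2-Ob*) was 1652 CPM with PBS and 277 CPM with anti–PD-1, and that of 3 plasma cell markers 2336 and 709 CPM. The 3 NK cell markers (*Nkg7*, *Klrd1* and *Ccl5*) were at 1819 and 4445 CPM. CD8+ T cells held 10488 and 9396 CPM of these 3, so they do not mark NK cells alone. None of these 9 genes was at 0 in the gate. *Malat1*, a sign of RNA quality, was at log2 ratios of 0.55 in this gate and 0.80 in regulatory T cells. The part of these differences in the *Egr2* ratio was not tested.

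*Egr3* (ENSMUSG00000033730, chromosome 14, 70077203 to 70082614, forward strand) was highest in B cells in both libraries, and its interval there did not overlap that of the next class. It had 61 UMIs in PBS B cells and 544 in anti–PD-1 B cells, or 29.9 and 111 CPM. That is 3.32-fold higher, at a log2 ratio of 1.73 (1.39 to 2.07). After each cell was thinned to 1000 UMIs, 1.73% of PBS B cells (0.97% to 2.84%) and 8.68% of anti–PD-1 B cells (7.34% to 10.2%) had an *Egr3* UMI, against 3.78% and 17.2% before thinning. The lowest shares among the 7 classes, in PBS monocytes and macrophages (0.365%) and anti–PD-1 tumor and biliary epithelial cells (0.186%), give the level of background. In the other classes *Egr3* was at most 13.2 CPM. Monocytes and macrophages stood at 3.68 (3.09 to 4.36) and 8.37 CPM (7.32 to 9.53), below the filter. The interval of the ratio also lay above 0 in the Kupffer cell, TAM and CD8+ T cell gates, again below the filter. In T cells as a whole *Egr3* stood at 6.59 and 7.71 CPM (68 and 113 UMIs), and no difference was detectable at this depth (0.13, −0.13 to 0.39, turning to −0.09 at a gate margin of 3).

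**Figure D2:**
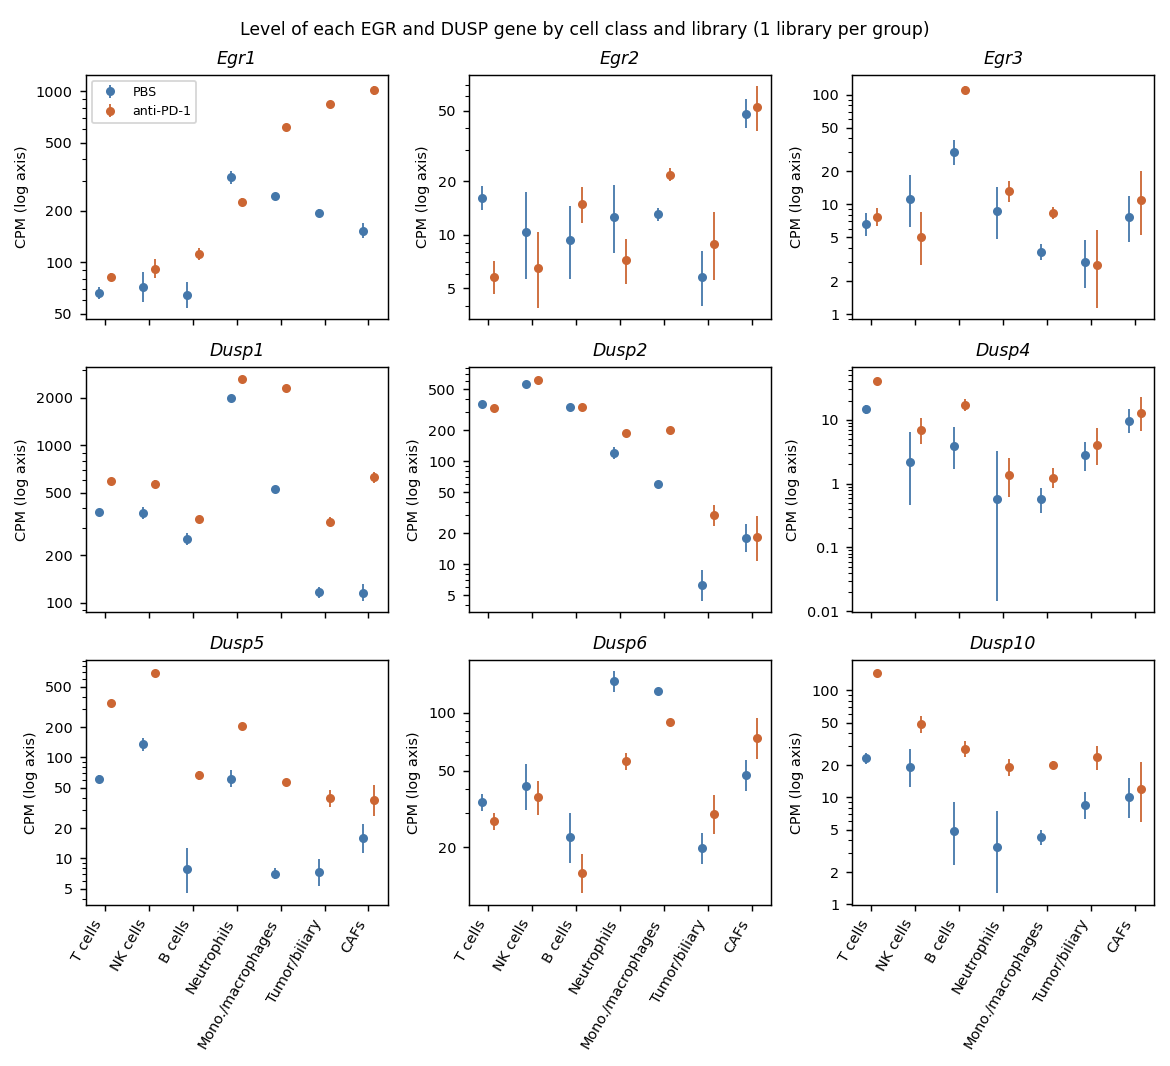
Level in CPM (log axis, 1 panel per gene) in 7 cell classes for the PBS library (blue) and the anti–PD-1 library (orange), with exact 95% Poisson intervals that are often smaller than the points. *Dusp5* is higher with anti–PD-1 in all 7 classes, from 61.8 to 343 CPM in T cells and from 7.07 to 56.8 CPM in monocytes and macrophages, while *Egr1* in neutrophils is lower, from 315 to 225 CPM.

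*Dusp5* (ENSMUSG00000034765, chromosome 19, 53529109 to 53542431, forward strand) encodes the nuclear phosphatase that is specific for ERK. It was called higher in all 12 classes and gates. T cells had 637 (PBS) and 5028 UMIs (anti–PD-1), or 61.8 CPM (57.1 to 66.8) and 343 CPM (334 to 353). NK cells were the highest class in both libraries, at 136 and 689 CPM (184 and 1901 UMIs). Neutrophils had 61.6 and 207 CPM. The lymphoid and neutrophil levels with anti–PD-1 thus exceeded their PBS levels 5.21-fold in T cells, 4.92-fold in NK cells and 3.19-fold in neutrophils. B cells, at 7.85 and 66.4 CPM (16 and 326 UMIs), monocytes and macrophages, at 7.07 and 56.8 CPM (261 and 1549 UMIs), and tumor and biliary epithelial cells, at 7.34 and 39.4 CPM (42 and 98 UMIs), started from low levels. Their log2 ratios were 2.47 (1.98 to 2.93), 2.36 (2.23 to 2.48) and 1.85 (1.47 to 2.21). In tumor and biliary epithelial cells the summed markers of NK cells, which hold the highest *Dusp5* and *Dusp2* levels, went from 63.5 to 320 CPM. Those of T cells went from 19.2 to 48.6 CPM and those of neutrophils from 178 to 663 CPM (with *Cd177* at 0 with anti–PD-1). The macrophage markers *Lyz2*, *C1qa* and *Apoe* were higher still, at 5327 and 6058 CPM, against 66342 and 40643 CPM in monocytes and macrophages. In tumor and biliary epithelial cells 3 hepatocyte markers (*Alb*, *Apoa1* and *Ttr*) went from 1153 to 1514 CPM. There 3 CAF markers (*Sparc*, *Bgn* and *Lum*) went from 723 to 217 CPM, and the 3 markers of the class itself from 3902 to 3053 CPM. The part of these transcripts in the ratios of this class, among them those of *Egr1*, *Dusp1* and *Dusp2*, was not tested. CAFs had the smallest difference, 16.0 and 37.9 CPM on 38 and 35 UMIs (1.03, 0.44 to 1.60), which was below 1 in 5 of 13 alternative settings and 0.43 with free RNA taken off.

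The finer gates for *Dusp5* were close to each other among T cells and apart among macrophages. CD8+ T cells stood at 60.3 and 309 CPM, CD4+ T cells without *Foxp3* at 49.5 and 329 CPM and regulatory T cells at 60.3 and 330 CPM, with log2 ratios of 2.27, 2.62 and 2.36 whose intervals overlapped. Kupffer cells, the resident macrophages of the liver, stood at 7.86 and 49.9 CPM, and TAMs at 6.58 and 85.3 CPM. Their log2 ratios were 2.09 (1.90 to 2.29) and 2.96 (2.78 to 3.14). The TAM gate was less pure in the anti–PD-1 library, in which 21.9% of its cells had a UMI of the Kupffer cell gene *Clec4f*, against 9.63% in the PBS library (88.2% and 83.7% in the Kupffer cell gate).

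More cells carried a *Dusp5* UMI with anti–PD-1. At 1000 UMIs per cell 5.53% (4.74% to 6.41%) of T cells had one with PBS against 28.3% (26.8% to 29.9%) with anti–PD-1, and in NK cells the shares were 10.7% (8.04% to 13.9%) and 42.7% (39.0% to 46.4%). In neutrophils it was 6.22% and 16.6%. Without thinning, 15.2% of PBS T cells and 60.8% of anti–PD-1 T cells had a UMI, at median depths of 2767 and 3655.5 UMIs. The lowest shares among the 7 classes were 0.577% in B cells with PBS and 3.90% in tumor and biliary epithelial cells with anti–PD-1. The part of free RNA in these low shares, and in the ratios of the classes that hold them, was not tested beyond the setting with 10% taken off. The 5% of T cells with the most *Dusp5* UMIs held 51.3% of them with PBS and 24.7% with anti–PD-1. This share depends on how many cells hold a UMI, so it does not by itself show a more concentrated expression with PBS.

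*Dusp10* (ENSMUSG00000039384, chromosome 1, 184013302 to 184075636, forward strand) encodes a phosphatase of JNK and p38. T cells had its highest level in both libraries, though with PBS their interval overlapped that of NK cells (19.3 CPM, 12.6 to 28.2). They held 239 UMIs (23.2 CPM, 20.3 to 26.3) for PBS and 2139 UMIs (146 CPM, 140 to 152) for anti–PD-1, which is 5.36-fold higher. Within T cells the CD4+ cells without *Foxp3* had 25.8 and 213 CPM (65 and 688 UMIs), CD8+ T cells 20.1 and 92.7 CPM, and regulatory T cells 21.1 and 98.2 CPM. Their log2 ratios were 2.83 (2.51 to 3.15), 1.96 (1.64 to 2.28) and 1.99 (1.41 to 2.57). The 3 gates thus had overlapping levels in the PBS library, whereas the CD4+ cells without *Foxp3* were highest with anti–PD-1. In the other classes *Dusp10* was low, between 3.45 and 19.3 CPM in the PBS library and between 11.9 and 48.2 CPM in the anti–PD-1 library. It was called in NK cells (log2 ratio 1.13), B cells (1.75), neutrophils (1.52), monocytes and macrophages (1.43) and tumor and biliary epithelial cells (1.08). With 20 CPM added each of these 5 lay below 1, between 0.61 and 0.96, whereas T cells stayed at or above 1.94 under every alternative. In CAFs it stood at 10.1 and 11.9 CPM on 24 and 11 UMIs, and no difference was detectable (0.16, −0.60 to 0.92). At 1000 UMIs per cell, 2.48% (1.96% to 3.10%) of T cells had a UMI with PBS and 13.2% (12.03% to 14.4%) with anti–PD-1, against 6.88% and 31.6% unthinned. The lowest shares were 0.340% in monocytes and macrophages with PBS and 1.30% in tumor and biliary epithelial cells with anti–PD-1.

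*Dusp1* (ENSMUSG00000024190, chromosome 17, 26505590 to 26562128, reverse strand), the nuclear phosphatase of p38 and JNK and itself an immediate early gene, was abundant. Its interval lay above 0 in all 12 classes and gates, and it was called in 6. Monocytes and macrophages had 19590 (PBS) and 63167 UMIs (anti–PD-1), or 531 and 2318 CPM, which is 4.34-fold higher (log2 ratio 2.12, 2.09 to 2.14). The make-up of this class differed, with 2803 TAMs and 1248 Kupffer cells for PBS against 620 TAMs and 2095 Kupffer cells for anti–PD-1, so each gate was also read alone. *Dusp1* stood at 672 and 2354 CPM in Kupffer cells (1.80, 1.77 to 1.83) and at 459 and 2177 CPM in TAMs (2.23, 2.19 to 2.27). CAFs stood at 116 and 627 CPM (2.38, 2.18 to 2.58) and tumor and biliary epithelial cells at 117 and 328 CPM (1.45, 1.31 to 1.60). Macrophages of the anti–PD-1 library thus came near the neutrophils, which were the highest class in both libraries at 1991 and 2626 CPM (0.40, 0.35 to 0.45). In lymphocytes the differences were smaller, with T cells at 380.0 and 592 CPM (0.63), NK cells at 372 and 573 CPM (0.61) and B cells at 255 and 341 CPM (0.41, and −0.10 with free RNA taken off). Among T cells the regulatory cells differed most, from 330 to 761 CPM (1.19, 1.01 to 1.37), and the CD8+ cells least, from 317 to 403 CPM (0.34, 0.24 to 0.45, and −0.07 with free RNA taken off). In thinned cells a *Dusp1* UMI was found in 32.3% and 77.3% of monocytes and macrophages and in 71.2% and 86.5% of neutrophils. The lowest shares were 8.74% in PBS tumor and biliary epithelial cells and 25.0% in anti–PD-1 B cells.

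*Dusp2* (ENSMUSG00000027368, chromosome 2, 127336159 to 127338376, forward strand) is a nuclear phosphatase known from activated lymphocytes and myeloid cells. The lymphocytes held its highest levels in both libraries, and there the libraries lay close together. T cells stood at 362 CPM (3732 UMIs) and 332 CPM (4874 UMIs), a log2 ratio of −0.12 (−0.18 to −0.06) that was 0.003 with median-ratio scaling. The finer T cell gates went both ways. The interval lay below 0 in CD8+ T cells (log2 ratio −0.16) and above 0 in CD4+ T cells without *Foxp3*. NK cells had 563 and 610.0 CPM and B cells 334 and 336 CPM, and both intervals spanned 0 (−0.01 to 0.24 and −0.12 to 0.13), with the sign in B cells changing between alternatives. Monocytes and macrophages differed, at 60.05 and 201 CPM (2217 and 5474 UMIs), which is 3.17-fold higher. The log2 ratios were 1.57 (1.46 to 1.67) in Kupffer cells and 1.80 (1.68 to 1.91) in TAMs, so both macrophage gates showed it. Tumor and biliary epithelial cells had 6.30 and 30.1 CPM on 36 and 75 UMIs (1.64, 1.23 to 2.02, and 0.93 with 20 CPM added), and CAFs 18.1 and 18.4 CPM (0.02, −0.66 to 0.69). Neutrophils lay between, at 121 and 187 CPM (0.61, 0.40 to 0.82).

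*Dusp4* (ENSMUSG00000031530, chromosome 8, 34807297 to 34819894, forward strand), a nuclear phosphatase of ERK and JNK, had its highest level in T cells, whose interval overlapped that of CAFs with PBS (9.70 CPM, 6.15 to 14.6) and not with anti–PD-1 (13.01 CPM, 6.72 to 22.7). T cells had 151 (PBS) and 607 UMIs (anti–PD-1), or 14.6 and 41.4 CPM, 2.36-fold higher (log2 ratio 1.24, 1.04 to 1.44, and 0.83 with 20 CPM added). Regulatory T cells were highest at 36.4 and 125 CPM (38 and 141 UMIs, 1.65, 1.17 to 2.14), followed by CD4+ T cells without *Foxp3* at 29.3 and 56.0 CPM (0.83, 0.48 to 1.18). CD8+ T cells had few UMIs in the PBS library, with 3.95 CPM on 12 UMIs, and 25.1 CPM on 167 UMIs with anti–PD-1 (1.75, 1.30 to 2.13). This call, too, was lost with 20 CPM added. B cells rested on 8 and 85 UMIs (3.93 and 17.3 CPM, 1.32, 0.75 to 1.79), and their ratio was 0.64 with 20 CPM added. NK cells stood at 2.22 and 6.89 CPM and tumor and biliary epithelial cells at 2.80 and 4.02 CPM, both below the filter. In neutrophils and in monocytes and macrophages *Dusp4* was at or below 1.35 CPM in both libraries.

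*Dusp6* (ENSMUSG00000019960, chromosome 10, 99263231 to 99267489, forward strand), the cytoplasmic ERK phosphatase, was called higher in none of the classes and gates, like *Egr2*. In the PBS library it was highest in the myeloid cells, and those had lower levels with anti–PD-1. Neutrophils had 253 UMIs from 1010 cells (PBS) and 374 UMIs from 2766 cells (anti–PD-1), or 146 CPM (128 to 165) and 56.0 CPM (50.5 to 62.0), 2.47-fold lower (log2 ratio −1.30, −1.52 to −1.08). Monocytes and macrophages stood at 130.1 and 89.3 CPM (−0.52, −0.59 to −0.45), and the Kupffer cell (−0.44) and TAM (−0.56) gates were alike within their intervals. T cells had 34.1 and 27.3 CPM (−0.28, −0.46 to −0.10), NK cells 41.5 and 36.3 CPM and B cells 22.6 and 14.7 CPM. In the nonhematopoietic classes the direction was the opposite, with CAFs at 47.2 and 73.7 CPM (0.59, 0.17 to 1.01) and tumor and biliary epithelial cells at 19.8 and 29.7 CPM (0.49, 0.12 to 0.85). These rest on 112 and 68 and on 113 and 74 UMIs. The CAF ratio was −0.04 in thinned cells, and the tumor cell ratio ranged from −0.38 where Y-linked cells alone were used to 1.12 at a limit of 5% mitochondrial UMIs. In neutrophils *Dusp6* and *Dusp5*, both phosphatases of ERK, thus went opposite ways. In thinned neutrophils a *Dusp6* UMI was found in 11.3% (9.36% to 13.6%) of cells with PBS and 5.05% (4.26% to 5.95%) with anti–PD-1, against 19.6% and 10.5% unthinned. The lowest shares were 1.87% in tumor and biliary epithelial cells with PBS and 1.28% in B cells with anti–PD-1.

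**Figure D3:**
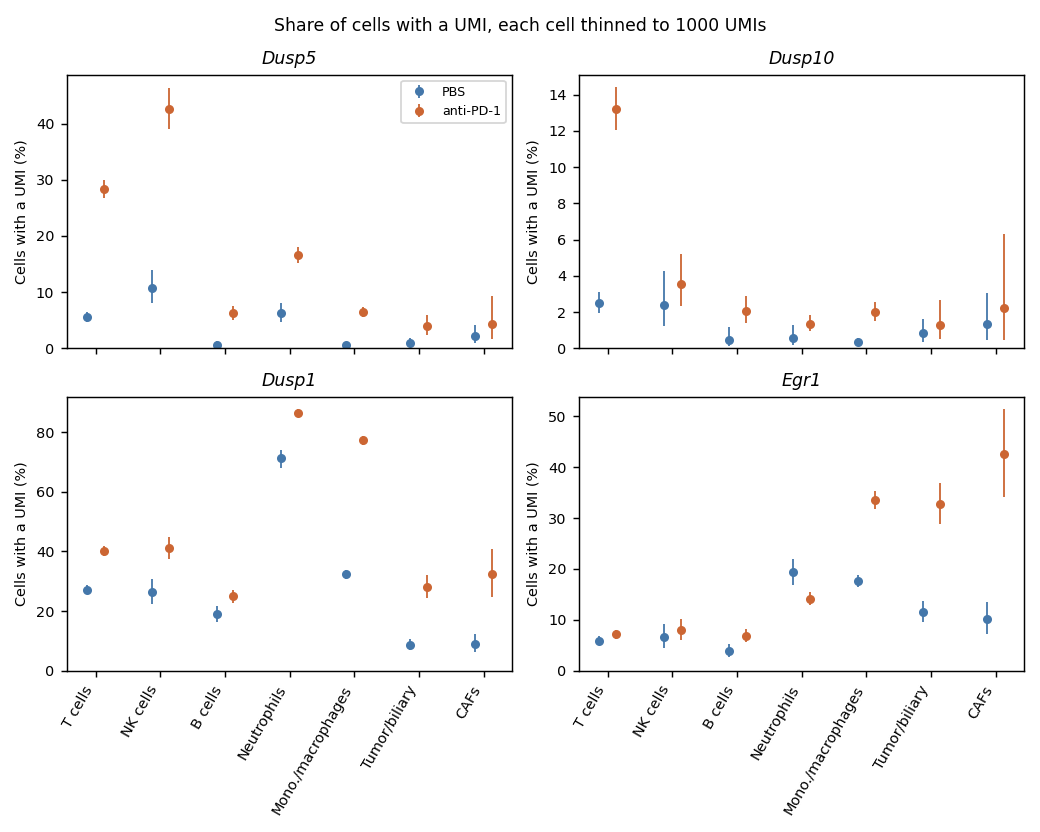
Share of cells with at least 1 UMI (%), with each cell thinned to 1000 UMIs, for *Dusp5*, *Dusp10*, *Dusp1* and *Egr1* in 7 cell classes of the PBS library (blue) and the anti–PD-1 library (orange), with exact 95% binomial intervals for counting error. *Dusp5* goes from 5.53% to 28.3% of T cells, and *Egr1* from 11.4% to 32.8% of tumor and biliary epithelial cells and from 10.1% to 42.6% of CAFs.

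The 9 genes were also counted together in the thinned cells, with no class that lacks them all to serve as background. At least 1 of them was detected in 53.3% (51.5% to 55.1%) of T cells with PBS and in 76.3% (74.8% to 77.7%) with anti–PD-1. At least 3 were detected in 3.38% and 9.11%. Monocytes and macrophages went from 51.9% to 85.9% for at least 1 gene and from 2.67% to 13.3% for at least 3, and tumor and biliary epithelial cells from 22.9% to 57.1% for at least 1. In B cells the shares lay closer, at 44.1% and 56.5%. Neutrophils were already at 82.1% in the PBS library and reached 91.7%.

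The genes around the set in the same pathway were described by lists. Over the 7 classes, between 1.61% (T cells) and 3.41% (tumor and biliary epithelial cells) of all genes past the filter were called higher. In neutrophils 4.68% were called lower, and for the other classes the share called lower is not given. At such shares, a short list with no gene called does not stand apart from all genes. Among 16 MAP kinases and their kinases, such as *Map2k1* (MEK1), between 13 and 15 passed the filter per class and none was called in either direction in any of the 7 classes, with the widest range in tumor and biliary epithelial cells, from *Mapk13* at −0.81 to *Map2k6* at 0.62. Of 6 genes for SRF and its partners, 5 passed the filter in T cells and none was called, with *Srf* highest (0.05) and *Elk3* lowest (−0.50). In neutrophils 2 were lower, with *Elk3* at −1.35. No gene among the other MAP kinase phosphatases (*Dusp7*, *Dusp8*, *Dusp9* and *Dusp16*) was called in any of the 7 classes, with *Dusp16* at 0.30 and *Dusp7* at −0.35 in T cells and at 0.24 and −0.26 in monocytes and macrophages. The same held for the EGR corepressors *Nab1* (0.34) and *Nab2* (−0.17) in T cells. Of 9 atypical phosphatases 1 was called higher in T cells, *Dusp14* (1.21, with *Dusp19* lowest at −0.37 among those past the filter). Of 9 other ERK feedback inhibitors 1 was called higher there, *Errfi1*, an inhibitor of the EGF receptor (1.20 in T cells and 1.12 in tumor and biliary epithelial cells). In NK cells the feedback inhibitor *Spry2* was called higher (1.36), and the lowest value of this list was that of *Rasa2* in CAFs (−1.07).

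Other immediate early genes differed mainly in the classes in which *Egr1* and *Dusp1* did. Of 10 such genes, 9 were called higher in tumor and biliary epithelial cells (median log2 ratio 1.70, from *Ier5* at 0.51 to *Atf3* at 3.41) and 9 in CAFs (2.20, with *Fosb* at 4.19). In monocytes and macrophages 6 were called (1.31, *Fosb* at 2.37), in NK cells 4, in B cells 3 and in T cells 3 (0.75, from *Jun* at 0.05 to *Atf3* at 1.90). The shares of all genes called higher were 3.41%, 3.32%, 3.34%, 2.07%, 1.78% and 1.61% in these classes in turn. In neutrophils none was called higher and 1 lower, *Jun* at −1.99, and *Atf3* was highest at 0.88. The 3 classes with the highest *Egr1* ratios thus also had the 3 highest medians of this list, and neutrophils had the lowest of both. Among 7 genes linked to EGR2 and EGR3 in T cell anergy, such as *Cblb* and *Dgka*, none was called in T cells (median 0.20, from *Itch* at −0.35 to *Fasl* at 0.33), where *Egr2* was lower. In CD4+ T cells without *Foxp3* none was called either, and the list went both ways, with a median of 0.33 between *Rnf128* at −0.69 and *Ndrg1* at 0.77. Of all genes, 1.61% were called higher in T cells, and 2.07% higher and 1.19% lower in the CD4+ gate.

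Genes of heat shock also differed between the libraries in these classes. All 9 listed heat shock genes had ratios above 0 in T cells (median 0.37, *Hspa1a* at 1.01), monocytes and macrophages (0.69, *Hspa1a* at 2.07), tumor and biliary epithelial cells (0.59, *Hspa1a* at 1.99) and CAFs (0.45, *Hspa1a* at 2.18), and 8 of 9 in neutrophils (0.60, *Hspa1b* at 1.72). The same was seen in B cells, with 9 of 9 above 0 and none called (0.44, *Hspe1* at 0.65), and in NK cells, with 8 of 9 above 0 (0.29, *Hspa1a* at 1.22). Livers are described as digested with enzymes at body temperature before capture, in both groups alike. The part of this step in the ratios was not tested. The nuclear RNA *Neat1* was lower in all 7 classes, between −0.49 in B cells and −1.31 in monocytes and macrophages, while *Malat1* lay between −0.11 and 0.28 in the same classes. Median mitochondrial shares were 3.73% and 4.22% in T cells and 3.82% and 3.89% in monocytes and macrophages. Transcripts of other cell types differed as well. The summed level of 3 neutrophil markers (*S100a8*, *S100a9* and *Cd177*) in T cells was 189 CPM with PBS and 597 CPM with anti–PD-1, and the 3 macrophage markers (*Lyz2*, *C1qa* and *Apoe*) went from 2452 to 1800 CPM, with none of these markers at 0 in T cells. Macrophages held 324 and 454 CPM of the neutrophil markers and 7.99 and 129 CPM of 3 markers of basophils and mast cells (*Il4*, *Il6* and *Hdc*). Their own 3 markers went from 66342 to 40643 CPM. CAFs (456 and 175 cells) held 3604 and 2779 CPM of the macrophage markers and 16.0 and 125 CPM of the basophil and mast cell markers. The 3 CAF markers there went from 19919 to 13588 CPM. Neutrophils held 6639 and 7325 CPM of the macrophage markers. Of the basophil and mast cell markers they held 1014 and 2125 CPM, with 1 of the 3 at 0 with PBS. The part of these in the EGR and DUSP ratios was not tested. With an assumed 10% of free RNA taken off and under the other alternatives, *Dusp5* stayed above 1 in T cells (2.15 to 2.61) and in monocytes and macrophages (1.51 to 2.84).

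Cells of the PBS library with only *Xist* or only Y-linked UMIs were then compared, the only comparison between animals that these data allow. In T cells, 317 cells with only Y-linked UMIs and 1273 cells with only *Xist* UMIs differed by log2 ratios between −0.52 (*Dusp4*) and 0.56 (*Dusp10*) over the 9 genes, and in monocytes and macrophages, with 495 and 2403 cells, between −0.23 (*Dusp1*) and 0.57 (*Egr1*). *Dusp5* in T cells was at 64.3 CPM in *Xist* cells and 51.0 CPM in Y-linked cells, with 337 CPM in the Y-linked cells of the anti–PD-1 library. *Dusp10* was at 18.8, 30.2 and 133 CPM. For both genes the anti–PD-1 level exceeded that of either set of PBS cells. *Egr1* in macrophages was at 227 and 340.4 CPM within the PBS library and 647 CPM in Y-linked cells of the anti–PD-1 library, and its ratio between libraries was 0.92 in Y-linked cells alone against 1.32 in all cells. In the smaller sets the same comparison gave larger differences. *Egr1* in CAFs was 2-fold lower in Y-linked PBS cells (91.2 against 191 CPM, −1.02) on 38 and 181 cells. *Dusp5* was lower in Y-linked PBS cells, at log2 ratios of −1.45 (−2.55 to −0.43) in CD8+ T cells, on 6 and 112 UMIs, and −0.90 in tumor and biliary epithelial cells. *Egr2*, on 16 UMIs or fewer per set, was at −1.64 in CD8+ T cells, −1.19 in B cells, −1.09 in NK cells and 1.31 in neutrophils, and *Egr3* at −1.24 in neutrophils, all with intervals that spanned 0. *Egr2* in CD4+ T cells without *Foxp3* stood at 30.8 and 32.6 CPM in the PBS sets and 4.40 CPM in Y-linked anti–PD-1 cells. With 1 library per group, the animals, their sex and the preparation cannot be told apart from the treatment.

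**Figure D4:**
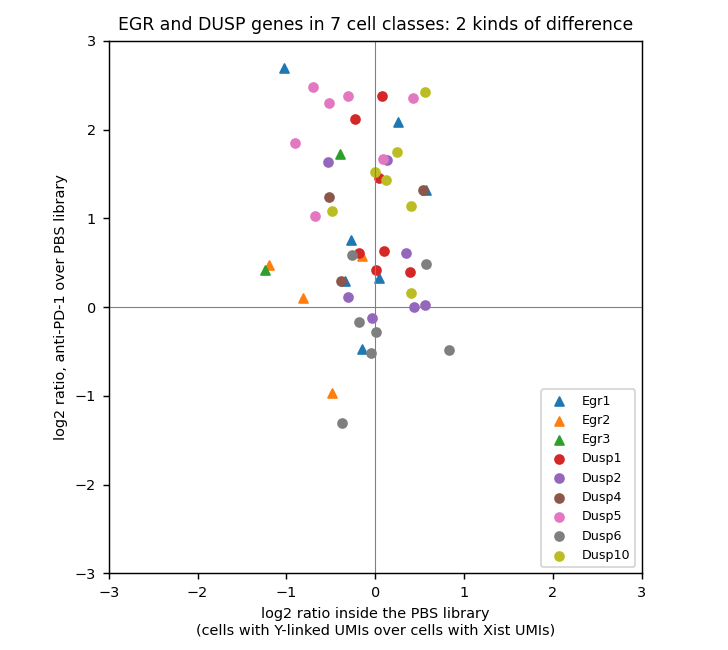
Each point is 1 gene in 1 of 7 cell classes, where its mean level was at least 10 CPM: the x axis is the log2 ratio inside the PBS library (cells with only Y-linked UMIs over cells with only *Xist* UMIs) and the y axis the log2 ratio of anti–PD-1 over PBS, on the same scale. On the y axis *Dusp5* lies between 1.03 and 2.47 and *Dusp10* between 0.16, in CAFs, and 2.42. On the x axis both lie between −0.90 and 0.56, and *Egr1* in CAFs lies at −1.02 on the x axis and 2.69 on the y axis.

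The genes whose levels were most like those of each member over the 14 class sums (7 classes in each library, Pearson correlation of log2(CPM + 5), 9749 genes with a mean of at least 10 CPM) are given as a description. The sums share libraries and cell classes. For *Dusp5* they were *Ubald2* (0.93), *Nr4a2* (0.91) and *Nr4a3* (0.91), and for *Dusp10* *Ube2s* (0.90), *Ctla4* (0.86) and *Tomm7* (0.86). *Egr1* was nearest to *Rhob* (0.88), *Dusp1* to *Trim30a* (0.94) and *Rsad2* (0.94), and *Dusp2* to *Ikzf1* (0.97). *Egr3* followed the B cell gene *Ms4a1* (0.89) and *Egr2* the endothelial and stromal genes *Fabp4* (0.94) and *Tfpi* (0.93), and *Dusp6* was nearest to *Fhod1* (0.92). *Dusp4* was too low to be placed.

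Overlapping genes were checked, since the strand used in counting is not given in the sources used here. *Dusp1* overlaps *Ergic1* on the other strand, which had 433 and 574 UMIs in T cells and 1422 and 1166 in monocytes and macrophages, with log2 ratios of −0.09 and 0.14. On its own strand it overlaps *AC122252.1*, which had 25 and 14 UMIs in monocytes and macrophages and 0 in T cells. The pseudogenes *AC122252.4* (same strand) and *Gm8225* (other strand) at *Dusp1* are not among the listed genes. The antisense gene *AC137853.2* at *Dusp5* had 64 and 37 UMIs in T cells, and *1700056E22Rik* at *Dusp10* had 65 and 67. Their log2 ratios in T cells were −0.57 and −0.24, against 2.38 for *Dusp5* and 2.42 for *Dusp10*.

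**Figure D5:**
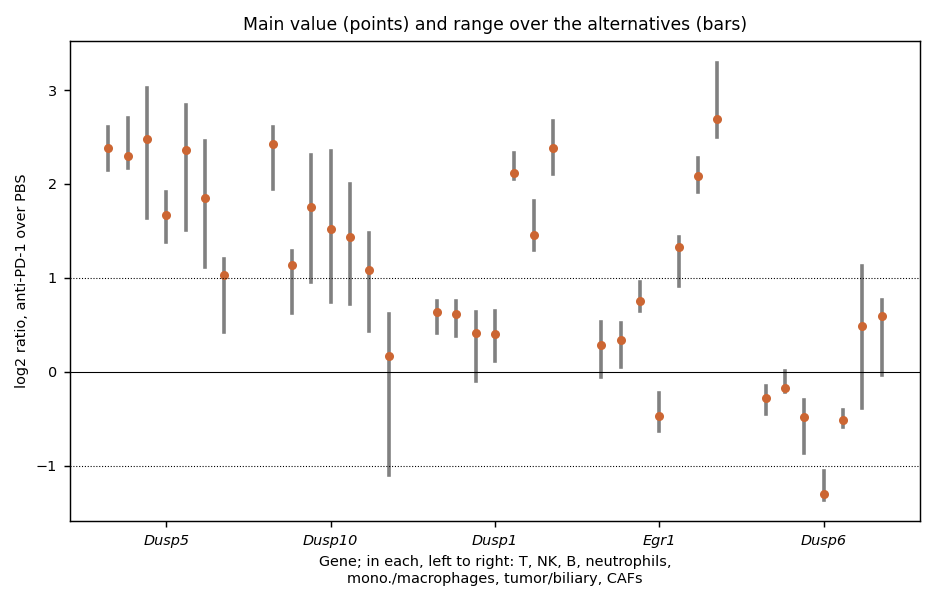
Log2 ratio of anti–PD-1 over PBS for 5 genes in 7 cell classes, with the main value as a point and the range over the alternative settings as a bar (dotted lines mark 2-fold). *Dusp5* stays above 1 in 6 of the classes and drops to 0.43 in CAFs, and *Dusp6* stays at or below −1.06 in neutrophils.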

How the data were processed

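Single-cell RNA-Seq of tumor-bearing livers was measured with the Singleron GEXSCOPE kit, 1 library per group, and groups were taken from the labels. The authors processed the reads with the Singleron software against mm10 and deposited unnormalized UMI counts for each gene in each barcode. The version, the gene annotation and the use of strand are not given in the sources used here. The authors analyzed these counts with Seurat (4.3 in the submitters' processing notes), including SCTransform and integration, which were not repeated. Coordinates come from GENCODE vM21 (GRCm38), which lists 32445 of the 32589 gene identifiers.

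Cells outside 500 to 5000 detected genes or above 10% mitochondrial UMIs were removed (3866 PBS and 3091 anti–PD-1 barcodes). A cell joined the class with the most detected markers of 6, if it had at least 2 and at least 2 more than in any other class. Cells with markers of several classes were thereby left out, and no doublet caller was run. CD8+ T cells had a *Cd8a* or *Cd8b1* UMI and no *Cd4* UMI, CD4+ cells the reverse without *Foxp3*, and regulatory T cells a *Foxp3* UMI and no CD8 UMI. Kupffer cells had UMIs of at least 2 of 6 resident macrophage genes, and TAMs were other macrophages with at least 2 of 6 complement and TAM genes. Dendritic, plasma, endothelial and other cells with fewer than 100 cells in a library were not compared.

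UMIs were summed per library and class. CPM carry exact Poisson intervals, log2 ratios an interval from the exact binomial split of the UMIs, and shares exact Clopper-Pearson intervals, all at 95%. No p-value was made, since each group is 1 library. For shares, 1000 UMIs were drawn at random from each cell, without cells that had fewer (35 and 32 T cells, 93 and 75 neutrophils, 100 and 99 tumor and biliary epithelial cells, 78 and 39 CAFs). Scripts used python 3.11.15, numpy 2.4.6, scipy 1.17.1 and pandas 2.3.3 and were tested on simulated counts. The alternatives were 1 or 20 CPM added, no filter on low values, median-ratio scaling, totals without the 50 highest genes, no upper limit on detected genes, at most 5% mitochondrial UMIs, gate margins of 1 and 3, Y-linked cells only, thinning, leaving out the 5% of cells with the most UMIs, taking off 10% free RNA, CD8+ cells with both CD8 genes and, chosen after seeing the data, leaving out barcodes that both libraries list. The members and lists were chosen with earlier results of these data known, so no pattern among them is independent support. All 9 genes were measured in every class compared, and pathway lists are given by their counts, with their highest or lowest genes in the classes described. A single marker outside the gate that was not highest in its own class is not reported here.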

Additional observations from a re-analysis of the deposited data

Results flagged for a closer look

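Within the same contrast, 4 of the genes differed in one direction in one cell class and in the opposite direction in another. With 1 library per group these differences between classes were not tested. *Egr1* had a log2 ratio of −0.47 in neutrophils and 2.69 in CAFs. *Egr2* was at −0.97 in T cells and 0.57 in monocytes and macrophages. *Dusp2* was at −0.12 in T cells, which median-ratio scaling moved to 0.003, and 1.66 in monocytes and macrophages. The finer T cell gates of *Dusp2* went both ways. *Dusp6* was at −1.30 in neutrophils and 0.59 in CAFs, where thinned cells gave −0.04.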

How the results depend on the processing

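Of 1404 values of single genes under the alternatives (without the change of filter, which cannot move a ratio), 1170 stayed within the counting interval of the reported value, 234 lay outside it, and 0 called values changed sign. *Dusp5* was above 1 in all 13 alternatives in 6 of 7 classes and in 8 of 13 in CAFs (from 0.43 with free RNA taken off to 1.20). *Dusp6* in neutrophils stayed between −1.36 and −1.06, *Egr2* in CD4+ T cells without *Foxp3* between −2.38 and −1.06, and *Egr3* in B cells between 1.39 and 1.92. *Dusp10* was above 1 in 7 of 13 in tumor and biliary epithelial cells (0.43 to 1.48). Calls lost with 20 CPM added were *Dusp4* in T cells (0.83), B cells (0.64) and CD8+ T cells (0.91), *Dusp2* in tumor and biliary epithelial cells (0.93), *Dusp5* in CAFs (0.69), *Egr2* in regulatory T cells (−0.68) and *Dusp10* in all but the T cell gates (0.61 to 0.96). In Y-linked cells alone *Egr1* was 0.92 in monocytes and macrophages and 0.57 in TAMs. The number of genes called higher changed by over 1.5 times with 20 CPM added (NK cells 1 for 2, B cells 2 for 4, neutrophils 1 for 2, tumor and biliary epithelial cells 3 for 5), since a larger addition shrinks low genes. It was 4 for 2 in CD4+ T cells without *Foxp3* at 5% mitochondrial UMIs, 1 for 2 in neutrophils at a gate margin of 3, in thinned cells and with free RNA taken off, 1 for 2 in thinned NK cells, and 3 for 5 in tumor and biliary epithelial cells with free RNA taken off. In these the cause was not tested. The background shares above were taken at the main setting, so the counts under alternatives stand without a share of all genes. Leaving out shared barcodes moved no value outside its interval. Regulatory T cells with only Y-linked UMIs were too few to be used.

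No paired analysis was possible because each group is 1 library, which also leaves no replicate to omit. Genes near 10 CPM in small classes, such as *Egr3* outside B cells and *Dusp4* outside T and B cells, are limited by counting.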
